A study of Mus musculus with 12 samples.

Results

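DNA methylation is written, copied and oxidised by a small set of enzymes, and 8 genes of that set were followed through spermatogenesis in WT and Zmym3 KO mouse cells. They are Dnmt1 and Uhrf1, Dnmt3a, Dnmt3b and Dnmt3l, and Tet1, Tet2 and Tet3. They were taken from the files by symbol, and all 8 were found in each of the 12 libraries among 22293 gene symbols. Every library came from male CBA/C57 mice. The groups were WT SSCs and KO SSCs, grown on laminin from mice labelled as 2 months old, the WT and KO c-KIT+ cells obtained from them with 100 nM retinoic acid (RA) for 36 h, and WT and KO spermatocytes (SC) sorted from testes at 5 and at 7 months. SSCs, from which sperm production is renewed, leave self-renewal when RA, made from vitamin A, acts on them. Each culture group had 2 libraries, and each genotype and age of spermatocytes had 1. The KO males carried either of 2 frameshift deletions in exon 2 of Zmym3, made with Cas9 in fertilized eggs and pooled under 1 name, and which of them each library carried is not given in the sources used here. The SSC lines came from KO mice and WT littermates, and how many lines entered the RNA-seq is not given in the sources used here.

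DNMT1 copies methylation onto the new DNA strand after replication, and UHRF1 binds the half-methylated CpG sites and brings DNMT1 to them. DNMT3A and DNMT3B methylate sites that were unmethylated, and DNMT3L, which has no catalytic activity of its own, stimulates them. TET1, TET2 and TET3 oxidise methylated cytosine to hydroxymethylcytosine and further forms, which opens a way to its removal. In male germ cells most methylation is laid down in prospermatogonia before birth, a step that needs DNMT3A and DNMT3L, and dividing spermatogonia then have to keep it.

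The 250 bases upstream of the annotated starts give these genes some shared letters. RefSeq promoter windows (GRCm38) were found for all 8 genes, 15 windows in all. The E2F-type motif TTTCGCGC (GCGCGAAA on the other strand), searched because E2F factors drive genes of DNA replication, occurred in 84 of 32851 windows (0.256%), among them 1 window of Dnmt1 and 1 of Uhrf1. The stretches around it are shown because Dnmt1 and Uhrf1 were the most abundant of the 8 transcripts and act together. Capitals mark the motif, Dnmt1 on the minus strand at chr9:20952824-20952853 and Uhrf1 on the plus strand at chr17:56304117-56304146. The Dnmt1 stretch overlaps an annotated untranslated exon, and the Uhrf1 stretch overlaps no annotated exon of the gene.
Dnmt1: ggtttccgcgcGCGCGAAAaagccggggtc
Uhrf1: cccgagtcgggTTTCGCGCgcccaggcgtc

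Dnmt3b and Tet3, the members with the clearest response to RA, are shown with the 150 bases that end at the start site. Capitals mark the GC box, which reads GGGCGG, or as its complement CCGCCC on the other strand. It is the motif of SP1-type factors and was held by 32.7% of all windows. Each of the genes had it in at least 1 window, with up to 5 in a Dnmt3a window and 3 in a Uhrf1 window, so it does not set Dnmt3b and Tet3 apart. The Dnmt3b stretch lies on the plus strand at chr2:153649299-153649448 and holds 3 GC boxes, and the Tet3 stretch lies on the minus strand at chr6:83441679-83441828 and holds 1. The half-site AGGTCA of RA receptors (TGACCT on the other strand), present in 14% of all windows, was found in 1 window each of Dnmt3a, Uhrf1 and Tet1 and in none of the windows of Dnmt1, Dnmt3b, Dnmt3l, Tet2 and Tet3. Such a match is a description of letters, and no binding was measured. In CpG the windows ranged from 2 sites in a Dnmt1 window to 51 in the Tet2 window, against a median of 6 over all windows, and the 3 windows of Dnmt3l held 3 to 5.
Dnmt3b: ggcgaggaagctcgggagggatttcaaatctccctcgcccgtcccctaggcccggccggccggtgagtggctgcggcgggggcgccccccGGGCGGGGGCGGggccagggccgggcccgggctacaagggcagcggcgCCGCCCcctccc
Tet3: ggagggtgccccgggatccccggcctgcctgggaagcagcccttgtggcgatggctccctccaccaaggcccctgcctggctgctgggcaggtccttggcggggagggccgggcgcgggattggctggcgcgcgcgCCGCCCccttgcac

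The knocked-out gene was lower in KO in each cell type. Zmym3 had 40.2 and 37.4 FPKM, which scales fragments by transcript length and library size, in the WT SSC libraries and 9.19 and 9.76 FPKM in the KO SSC libraries. The c-KIT+ libraries had 39.9 and 39.7 FPKM in WT and 10.01 and 11.3 FPKM in KO. In spermatocytes it was at 0.412 and 0.460 FPKM in WT and 0.146 and 0.340 FPKM in KO (5 and 7 months), so there the check rests on values under 1 FPKM. Summed marker levels differed between the cell types, with single genes that ran the other way. The summed level of 6 genes of undifferentiated spermatogonia was 261 to 286 FPKM in SSCs, 116 to 140 FPKM in c-KIT+ cells and 33.7 to 51.5 FPKM in spermatocytes. That of 5 genes of differentiating spermatogonia, Kit and Stra8 among them, was 144 to 157 FPKM, 757 to 833 FPKM and 225 to 267 FPKM. For 8 spermatocyte genes the sum was 106 to 212 FPKM in the cultures and 820 to 995 FPKM in spermatocytes. Against their lists, Id4 of the undifferentiated set had a mean of 39.9 FPKM in WT spermatocytes against 17.0 FPKM in WT SSCs. Dmrtb1 of the differentiating set had 236 FPKM in KO spermatocytes against 5.11 FPKM in KO c-KIT+ cells, and Dmc1 of the spermatocyte set had 1.47 FPKM in WT spermatocytes against 17.8 FPKM in WT c-KIT+ cells, so that Id4 and Dmrtb1 made up most of those sums in spermatocytes. Library totals lay between 262493 and 302340 FPKM, and the highest, WT SSC replicate 1, stood apart with 26720 FPKM on Mir3064. The relative depth, read from the steps between the lowest values, was 0.912 to 1.22, with the WT library of spermatocytes at 5 months set to 1. Whether replicate libraries were grown as separate cultures is not given in the sources used here, so the spread behind the p-values may be technical.

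The maintenance genes were the most abundant of the 8. Dnmt1, on chromosome 9 of mm9 from 20711650 to 20764332, was at 170.1 and 169 FPKM in the WT SSC libraries, 184 and 177 FPKM in the KO SSC libraries, 199.7 and 198 FPKM in WT c-KIT+ cells, and 211 and 209 FPKM in KO c-KIT+ cells. In WT spermatocytes it was at 22.0 and 25.9 FPKM, and in KO spermatocytes at 21.1 and 27.8 FPKM. All 8 culture libraries thus lay far above all 4 spermatocyte libraries, and among the cultures every c-KIT+ library was above every SSC library. Such a separation with RA, in the higher direction, was seen for 48.9% of all genes in WT and 47.0% in KO. Ranked among all genes, Dnmt1 stood at percentiles 99.3 to 99.7 in the cultures and 88.1 to 90.5 in spermatocytes. Uhrf1, on chromosome 17 from 56442760 to 56462909, was at 174 and 174 FPKM in the WT SSC libraries, 167 and 167 FPKM in the KO SSC libraries, 174 and 186 FPKM in WT c-KIT+ cells, and 174 and 177 FPKM in KO c-KIT+ cells. Its spermatocyte levels were 32.4 and 35.1 FPKM in WT and 33.6 and 35.0 FPKM in KO. Uhrf1 therefore differed little among the cultures, and the ratio of Dnmt1 to Uhrf1 was 0.971 to 1.22 there against 0.630 to 0.793 in spermatocytes, a difference that was not tested.

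The de novo enzymes followed different courses. Dnmt3a, on chromosome 12 from 3806980 to 3914443, was at 22.3 to 25.1 FPKM in all 8 culture libraries, whatever the genotype or RA treatment. In spermatocytes it was at 0.195 and 0.243 FPKM in WT and 0.226 and 0.456 FPKM in KO. Dnmt3b, on chromosome 2 from 153475190 to 153513466, was at 15.6 and 14.4 FPKM in the WT SSC libraries and 13.4 and 12 FPKM in the KO ones. With RA it was at 28 and 28.1 FPKM in WT c-KIT+ cells and 22.8 and 22.7 FPKM in KO c-KIT+ cells. In spermatocytes Dnmt3b was at 1.17 and 1.43 FPKM in WT and 1.58 and 1.78 FPKM in KO. The 6 groups of Dnmt3b did not overlap, as was the case, in any order, for 4.14% of all 13247 genes, and fell in the order WT c-KIT+, KO c-KIT+, WT SSC, KO SSC, KO spermatocytes and WT spermatocytes. Of the neighbours in this order, KO SSCs and KO spermatocytes differed by limma, the WT and KO groups of a cell type did not pass its thresholds, and KO c-KIT+ cells were not tested against WT SSCs. Dnmt3c, a rodent copy of Dnmt3b that lies beside it, was not analysed here, and fragments that match both genes could have been counted on either, so the Dnmt3b values carry that doubt.

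Dnmt3l was low throughout. On chromosome 10 from 77505032 to 77526360, it had 0.408 and 0.362 FPKM in the WT SSC libraries and 0.964 and 0.796 FPKM in the KO ones. The c-KIT+ libraries had 0.809 and 0.881 FPKM in WT and 1.21 and 1.10 FPKM in KO, and the spermatocyte libraries 0.335 and 0.472 FPKM in WT and 0.162 and 0.334 FPKM in KO. The libraries of KO SSCs and of WT c-KIT+ cells overlapped, both groups lay above WT SSCs, and KO c-KIT+ cells were highest. Only the 2 KO c-KIT+ libraries reached the 1 FPKM that the filter asked for, so Dnmt3l was tested only because it was high there. All its limma values below are therefore a description.

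Among the TET genes, Tet3 made up nearly the whole of the transcript in culture. Tet3, on chromosome 6 from 83312368 to 83391672, was at 6.39 and 5.96 FPKM in the WT SSC libraries, 5.60 and 5.04 FPKM in the KO SSC libraries, 9.32 and 9.13 FPKM in WT c-KIT+ cells, and 7.41 and 8.16 FPKM in KO c-KIT+ cells. All 4 spermatocyte libraries were at 0.0579 to 0.0845 FPKM. Like Dnmt3b, it thus ran highest in WT c-KIT+ cells and lower in KO than in WT in both culture states, without overlap. Separation of WT and KO libraries, in either direction, was seen for 57.4% of all genes in SSCs and 52.3% in c-KIT+ cells. The KO difference was called for neither gene in either state. Tet1, on chromosome 10 from 62267318 to 62342762, was at 0.0499 to 0.130 FPKM in the cultures and 0.00281 to 0.0187 FPKM in spermatocytes. Tet2, on chromosome 3 from 133126641 to 133207354, was at 0.142 to 0.208 FPKM in the cultures and 0.00866 to 0.0384 FPKM in spermatocytes. In the WT spermatocyte library at 5 months, whose confidence limits give back fragment numbers, Tet1 rested on 1 fragment, Tet2 on 2 and Tet3 on 19, so the spermatocyte levels of Tet1 and Tet2 are at the limit of detection. No library reached 1 FPKM for either, and both were left out of the tests. Tet3 took 94.3% to 97.5% of the summed TET level in the cultures and 59.7% to 85.7% in spermatocytes.

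**Figure D1:**
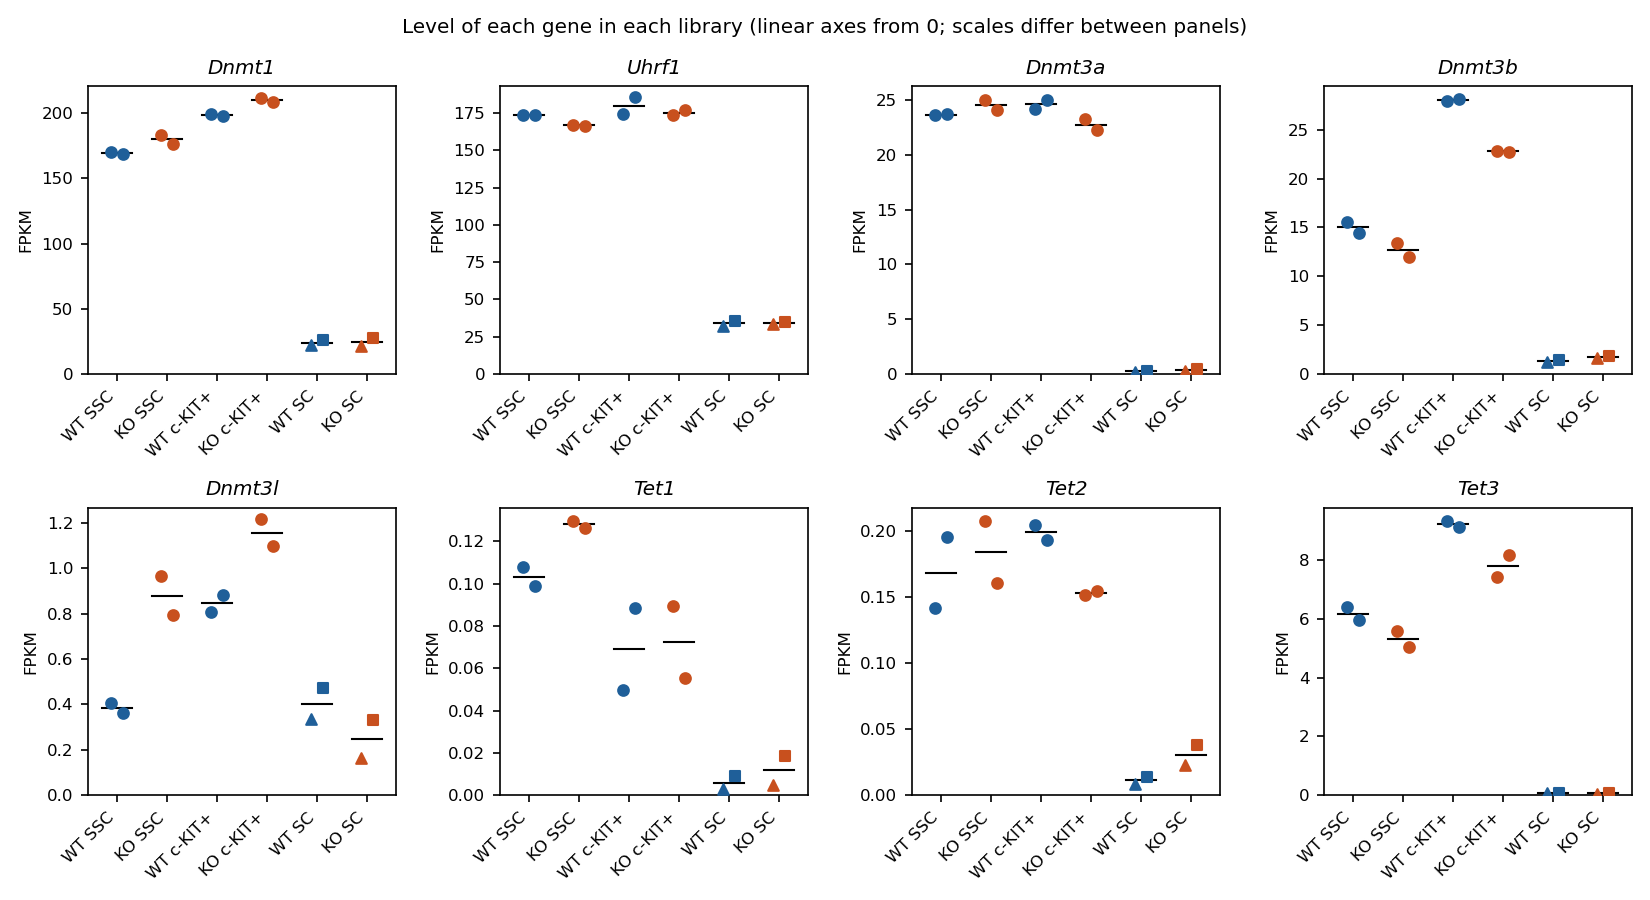
Level of the 8 genes (y axis, FPKM, linear from 0, a scale per panel) in each library by group (x axis). Circles are culture libraries, triangles and squares spermatocytes at 5 and 7 months, blue is WT, orange is KO and the line is the group mean of 2 libraries. Dnmt1, Uhrf1, Dnmt3a, Dnmt3b and Tet3 are lower in all 4 spermatocyte libraries than in any culture library. Dnmt3b and Tet3 are highest in WT c-KIT+ cells, and Dnmt3l lies between 0.162 and 1.21 FPKM throughout.

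RA raised 4 of the 6 tested genes in WT cells and lowered none. Dnmt3b rose most, from 15 ± 0.81 FPKM to 28.1 ± 0.12 FPKM (SD, n = 2 each), a 1.87-fold increase (0.86 as a log2 fold change on the log2(FPKM + 1) scale, SE 0.06, adjusted p = 1.05e-05, limma). Tet3 rose from 6.17 ± 0.31 to 9.23 ± 0.13 FPKM (SD, n = 2 each), 1.49-fold (log2 fold change 0.51, SE 0.07, adjusted p = 0.000483, limma). For Dnmt1 the step was smaller, from 169 ± 1.02 to 199 ± 1.20 FPKM (SD, n = 2 each; log2 fold change 0.23, SE 0.05, adjusted p = 0.00295, limma). Dnmt3l rose from 0.385 ± 0.033 to 0.845 ± 0.051 FPKM (SD, n = 2 each; log2 fold change 0.41, SE 0.09, adjusted p = 0.00360, limma). It stayed under 1 FPKM in all 4 of these libraries and was tested only through the KO c-KIT+ libraries, so its call is a description. Dnmt3a and Uhrf1 did not pass, with log2 fold changes of 0.05 each (adjusted p = 0.342 and 0.412, limma). Of all 11981 genes tested, 40.7% were called in this comparison, 24.9% as higher, at an adjusted p under 0.01. When any 1 of the 4 compared libraries was left out, WT SSC replicate 1 or 2 or WT c-KIT+ replicate 1 or 2, only Dnmt3b and Tet3 were still called, 2 genes in place of 4.

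In KO cells RA raised 3 of the 6 tested genes and lowered none. Dnmt3b rose from 12.7 ± 0.97 to 22.8 ± 0.05 FPKM (SD, n = 2 each), 1.80-fold (log2 fold change 0.80, SE 0.06, adjusted p = 1.52e-05, limma), and Tet3 from 5.32 ± 0.39 to 7.79 ± 0.54 FPKM, 1.46-fold (0.48, SE 0.07, adjusted p = 0.000715). Dnmt1 rose from 180.2 ± 4.80 to 210.0 ± 2.02 FPKM (SD, n = 2 each; log2 fold change 0.22, SE 0.05, adjusted p = 0.00364, limma). The other genes tested were not called, with log2 fold changes of 0.20 for Dnmt3l (adjusted p = 0.0793), 0.07 for Uhrf1 (adjusted p = 0.245) and -0.11 for Dnmt3a (adjusted p = 0.0774). Over all genes, 40.5% were called, 24.6% as higher. Without KO SSC replicate 1, KO SSC replicate 2 or KO c-KIT+ replicate 1, Dnmt1 was no longer called, with an adjusted p of 0.0127, 0.0326 and 0.0134 (limma).

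A difference of the RA response between the genotypes was called for none of the 6 genes. The interaction ranged from -0.22 for Dnmt3l (SE 0.12, adjusted p = 0.757, limma) to 0.02 for Uhrf1 (SE 0.07, adjusted p = 0.975), and for Dnmt3b it was -0.06 (SE 0.09, adjusted p = 0.923). It was -0.16 for Dnmt3a (SE 0.07, adjusted p = 0.655), the only 1 of the 6 at an unadjusted p under 0.05. Among all 11981 genes the interaction was called for 0 (0%), with 865 at an unadjusted p under 0.05.

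With RA the proportion of the de novo enzymes changed. The ratio of Dnmt3b to Dnmt3a was 0.659 and 0.608 in WT SSCs and 1.15 and 1.12 in WT c-KIT+ cells. In KO cells it was 0.533 and 0.496 before RA and 0.980 and 1.02 after. In spermatocytes, where Dnmt3a was under 0.5 FPKM, the ratio was 6.02 and 5.90 in WT and 6.98 and 3.91 in KO. Both enzymes together were at 36.1 to 53.2 FPKM in the cultures, and Dnmt1 held 78.8% to 83.0% of the sum of Dnmt1, Dnmt3a and Dnmt3b there, against 92.1% to 94.1% in spermatocytes. These ratios were not tested, and the spread within each culture group was smaller than the step with RA. Over the 8 culture libraries Dnmt3b and Tet3 varied together (Pearson r = 0.99, n = 8, a description over libraries of 4 groups).

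**Figure D2:**
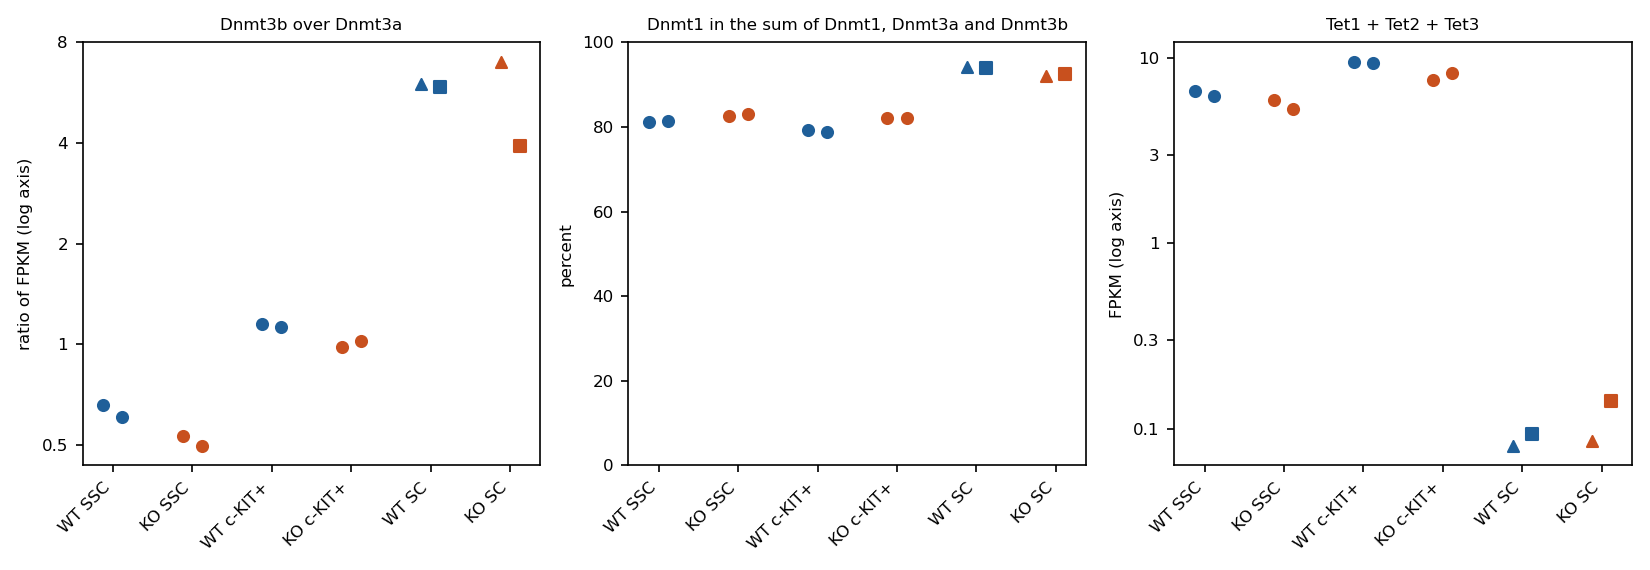
From left to right, the ratio of Dnmt3b to Dnmt3a (log axis), Dnmt1 as a percent of Dnmt1 + Dnmt3a + Dnmt3b (linear axis from 0) and the summed TET level in FPKM (log axis), by group. Each point is 1 library, blue WT and orange KO, with triangles for 5 months and squares for 7 months. The ratio runs from 0.496 to 1.15 in the cultures and from 3.91 to 6.98 in spermatocytes, and the TET sum from 5.33 to 9.58 FPKM and from 0.0804 to 0.142 FPKM.

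With Zmym3 KO none of the 6 tested genes was called in SSCs, with 3 at an unadjusted p under 0.05, while 4.90% of all genes were called (limma, adjusted p under 0.01). That share is 587 genes, and 117 to 228 were called when any 1 of the 4 compared libraries was left out. Dnmt3l came closest, 2.29-fold higher in KO at 0.880 ± 0.12 FPKM against 0.385 ± 0.033 FPKM (SD, n = 2 each; log2 fold change 0.44, SE 0.09, adjusted p = 0.0134, limma), on levels under 1 FPKM. It was tested only through the KO c-KIT+ libraries, so its KO values and calls are a description. Dnmt3b was lower by 15.5% of its WT mean (log2 fold change -0.23, SE 0.06, adjusted p = 0.0425, limma) and Tet3 stood at 5.32 against 6.17 FPKM (-0.18, SE 0.07, adjusted p = 0.141). Dnmt1 (0.09, adjusted p = 0.252), Dnmt3a (0.05, adjusted p = 0.505) and Uhrf1 (-0.06, adjusted p = 0.487) lay nearer to 0. Dnmt3l was called with a pseudocount of 0.1 (adjusted p = 0.00979), with libraries at an equal total, with quantile normalization and with no variance trend, and not in the fits that left out a library.

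In c-KIT+ cells the result was alike in kind. Of the 6 genes none was called, with 4 at an unadjusted p under 0.05, and 2.70% of all genes were called (limma). That share is 324 genes, and without any 1 of the 4 compared libraries 78 to 144 were called. Dnmt3b was at 28.1 ± 0.12 FPKM in WT and 22.8 ± 0.05 FPKM in KO (SD, n = 2 each; log2 fold change -0.29, SE 0.06, adjusted p = 0.0250, limma), so that 18.8% of its WT mean was missing in KO. For Tet3 the log2 fold change was -0.22 (SE 0.07, adjusted p = 0.115), for Dnmt3l 0.22 (SE 0.09, adjusted p = 0.165), for Dnmt3a -0.11 (SE 0.05, adjusted p = 0.205), for Dnmt1 0.08 (adjusted p = 0.357) and for Uhrf1 -0.04 (adjusted p = 0.705). Dnmt3b and Tet3 were below WT in both KO libraries of SSCs and of c-KIT+ cells, and Dnmt1 and Dnmt3l above. Dnmt3l had passed the filter only through the KO c-KIT+ libraries, so its values are a description. Libraries of WT and KO did not overlap for 57.4% of all genes in SSCs and 52.3% in c-KIT+ cells, in either direction, so separation of 2 from 2 libraries is common here. Fibroblast markers moved with genotype, and their part in these shifts was not tested. The summed level of 7 such genes was 72.3 to 74.9 FPKM in the WT cultures and 48.9 to 51.4 FPKM in the KO cultures, and 4 of the 6 tested were called lower in KO in each state.

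In spermatocytes 3 of the 8 genes could be tested for genotype, with age as a block, and none was called or reached an unadjusted p of 0.05, against 1.67% of 9350 genes called at an adjusted p under 0.05 (limma). The log2 fold change was 0.02 for Dnmt1 (SE 0.07, adjusted p = 0.962), 0.02 for Uhrf1 (SE 0.05, adjusted p = 0.941) and 0.22 for Dnmt3b (SE 0.12, adjusted p = 0.576). Dnmt3b was higher in KO at both ages, by 28.9% of the WT mean, with libraries that did not overlap, as was seen for 7.24% of all genes. Only 1 residual degree of freedom stood behind this fit. Summed spermatid and Sertoli cell markers differed with genotype in these libraries. The 6 spermatid genes summed to 445 to 497 FPKM in WT and 205 to 235 FPKM in KO, with 4 of 6 called lower. The 5 Sertoli genes summed to 2.58 to 2.81 FPKM in WT and 5.65 to 12.6 FPKM in KO. Of the Sertoli genes only Cldn11 was tested, at a mean of 1.26 FPKM in WT and 5.45 FPKM in KO, and it was not called (adjusted p = 0.0675, limma). The part of these markers in the values was not tested.

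**Figure D3:**
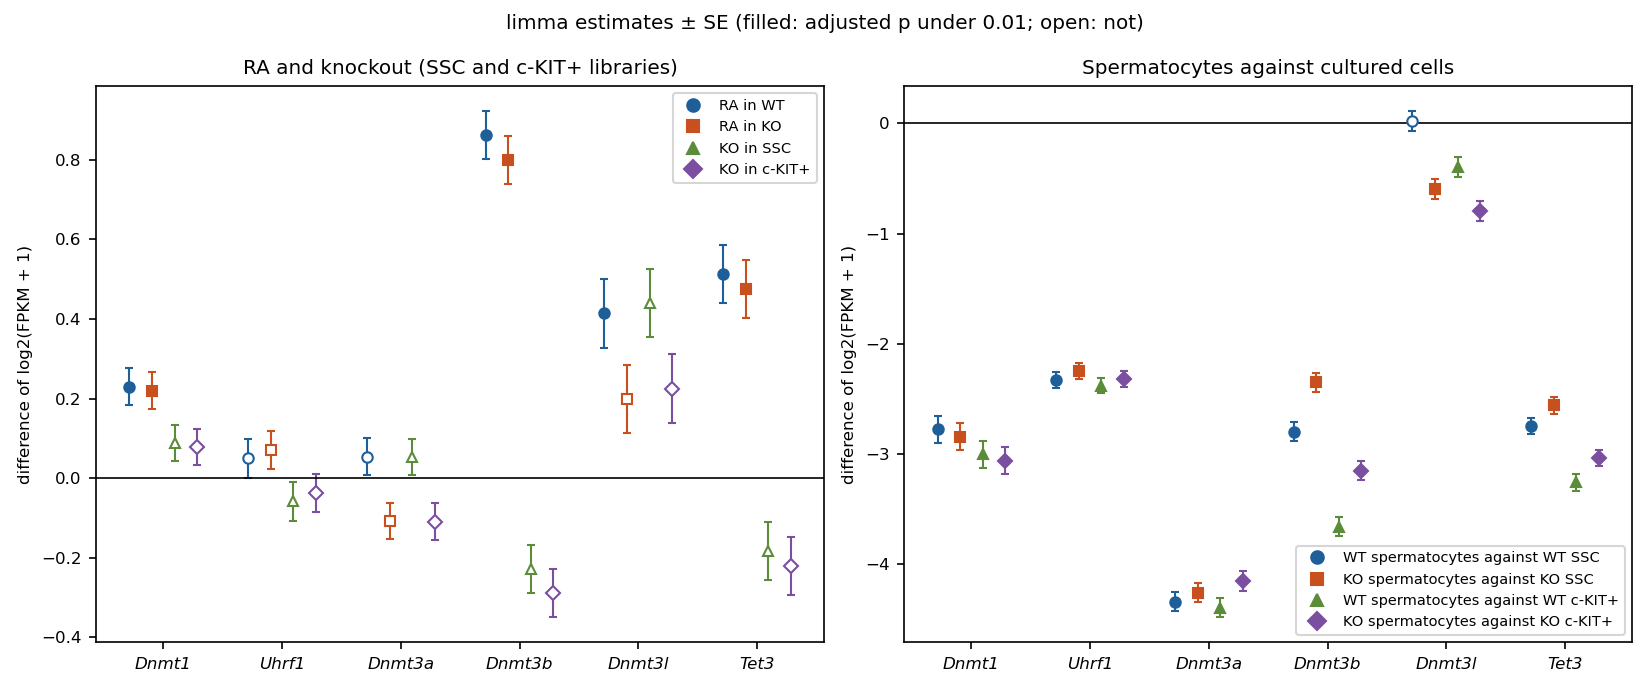
Differences of log2(FPKM + 1) with SE from limma (y axis) for the 6 tested genes (x axis), RA and KO comparisons on the left and spermatocytes against cultured cells on the right. Filled symbols passed an adjusted p of 0.01. Dnmt3b and Tet3 are raised by RA in both genotypes, no KO comparison passes, and Dnmt3l is the only gene near 0 in WT spermatocytes against WT SSCs.

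Between cultured cells and spermatocytes the same genes differed far more. In WT, Dnmt3a was 108-fold lower in spermatocytes than in SSCs (log2 fold change -4.34, SE 0.09, adjusted p = 1.20e-10, limma), Tet3 88.5-fold (-2.74, SE 0.07, adjusted p = 7.63e-10) and Dnmt3b 11.5-fold (-2.80, SE 0.09, adjusted p = 1.57e-09). Dnmt1 was 7.06-fold lower (-2.77, SE 0.12, adjusted p = 1.99e-08) and Uhrf1 5.14-fold (-2.33, SE 0.07, adjusted p = 1.58e-09). The log2 values understate the fall of genes that end near 0, since 1 FPKM was added. Dnmt3l was not called, at 0.02 (SE 0.09, adjusted p = 0.858), with 0.403 ± 0.097 FPKM in WT spermatocytes against 0.385 ± 0.033 FPKM in WT SSCs (SD, n = 2 each), although with quantile normalization it was called higher (0.76, adjusted p = 4.86e-05, limma). Dnmt1, Uhrf1 and Dnmt3b reached 1 FPKM in all 12 libraries. Dnmt3a and Tet3 reached it in the 8 culture libraries and in 0 of 4 spermatocyte libraries, so they passed the filter only through the cells where they were high, and their calls are a description. Over all 13247 genes 85.9% were called and 59.7% were lower. A gene called lower is therefore common here, and the median log2 fold change of all genes was -0.89. Median-ratio scaling moved that median by 0.41 and quantile normalization by 0.60, and the 5 genes other than Dnmt3l were called lower under both and without any 1 library.

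Falls were called in KO cells as well. Against KO SSCs, KO spermatocytes had log2 fold changes of -4.26 for Dnmt3a, -2.84 for Dnmt1, -2.56 for Tet3, -2.35 for Dnmt3b and -2.25 for Uhrf1 (SE 0.07 to 0.12, adjusted p between 1.44e-10 and 1.72e-08, limma), and Dnmt3l was called as well, at -0.59 (SE 0.09, adjusted p = 0.000193), but not with quantile normalization (-0.03, adjusted p = 0.761). Dnmt3a and Tet3 passed the filter only through the culture libraries, and Dnmt3l only through the KO c-KIT+ ones, so their calls are a description here too. Of all genes 85.2% were called, 59.6% lower. Set against c-KIT+ cells, Dnmt1, Uhrf1 and Dnmt3b were called lower in both genotypes, and so were Dnmt3a, Tet3 and Dnmt3l, which had passed the filter only through cultured cells, where 85.8% of all genes were called in WT (61.1% lower) and 85.3% in KO (61% lower). Dnmt3b stood at -3.66 in WT and -3.15 in KO, Tet3 at -3.26 and -3.03, and Dnmt3l at -0.40 (adjusted p = 0.00256) and -0.79 (adjusted p = 2.41e-05, limma). For Dnmt3l the WT value lost its call without WT c-KIT+ replicate 2 (-0.37, adjusted p = 0.0181) and without the WT spermatocytes at 5 months (-0.33, adjusted p = 0.0210), and it turned to 0.50 with quantile normalization (adjusted p = 0.000962). The KO value lost its call with quantile normalization (-0.10, adjusted p = 0.353). Culture and cell type cannot be told apart in these comparisons, because all SSCs and c-KIT+ cells were cultured and all spermatocytes came from tissue. Fewer cells of a type and less RNA per cell cannot be told apart in such bulk libraries either.

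Genes that work with the 8 enzymes were taken from 7 lists and show how far the enzymes' course was shared. Beside their counts stand the 24.9% of all genes called higher and 15.9% called lower with RA in WT, 40.7% in all, and no list was tested against them. With RA in WT cells, 3 of 8 maintenance partners were called higher and 1 lower. Hells, the helicase that opens chromatin for maintenance methylation, rose from 90.9 to 122 FPKM (log2 fold change 0.42, adjusted p = 0.000469, limma), Uhrf2 (0.20) and the DNA ligase Lig1 (0.17) also rose, and Cdca7, the partner of HELLS, fell (-0.21, adjusted p = 0.00960). Of 15 tested genes of oxidation and repair, 1 was called higher and 5 lower. Gadd45b rose by 0.98 and Gadd45g fell by 1.19, Parp1 fell from 287 to 187 FPKM (-0.62), and the CXXC protein gene Cxxc5 fell by 0.46. Among 8 readers of methylated CpG, Zbtb38 was called higher (0.35).

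Chromatin guides are factors that direct methylation to its sites, and 1 of 12 was called higher and 2 lower with RA in WT, a smaller share than the 40.7% of all genes. Kdm1b, a histone demethylase needed for imprints in oocytes, fell by 0.43 and Trim28, the corepressor that holds methylation at imprints, fell by 0.25, while Trdmt1, a tRNA methyltransferase of DNMT-like sequence that stood on this list, rose by 0.61. In the methyl donor cycle, 3 of 11 genes were called higher and 2 lower. Mtr (-0.58) and Shmt2 (-0.57) fell, and Mtrr (0.46) and Mat2a (0.23), which makes S-adenosylmethionine, rose. Of 18 genes of DNA replication and cell division, 4 were called higher and 1 lower, with Cdc6 at 0.34, Mcm3 at 0.30 and Mcm2 at 0.25 and the uracil glycosylase gene Ung at -0.55, again a smaller share than over all genes. The medians of these lists lay between -0.05 and 0.17, beside 0.08 over all genes and 0.32 over the 6 tested enzymes. With RA in KO cells 24.6% of all genes were called higher and 16.0% lower. There 4 of 8 maintenance partners were higher and 1 lower, 1 of 15 genes of oxidation and repair higher and 2 lower, and 2 of 8 readers higher. Of the chromatin guides 4 of 12 were higher and 3 lower, and of the germ line genes described next 4 of 12 higher and 2 lower. In the methyl donor cycle 1 of 11 was higher and 3 lower, and of the replication genes 1 of 18 was higher and 3 lower, with a median of -0.02 over these. A difference of these counts between the genotypes was not tested.

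The last list held germ line genes that somatic cells keep methylated. Of 12, 5 were called higher and 1 lower with RA in WT (24.9% and 15.9% over all genes), among them Sycp3 of the synaptonemal complex (1.14), Sycp1 (0.52), Taf7l (0.36) and Slc25a31 (0.30). In KO SSCs, where 4.90% of all genes were called, 3 of the 12 were called higher and none lower. They were Sycp3 (0.41, adjusted p = 0.00997), Tdrd9 of the piRNA pathway (0.37, adjusted p = 0.00191) and Mael (0.25, adjusted p = 0.00999, limma). Sycp3 and Mael thus passed the threshold of 0.01 only narrowly. In KO c-KIT+ cells, with 2.70% of all genes called, Tdrd9 alone was called (0.30, adjusted p = 0.00744, limma). DNA methylation itself was not measured, so these transcripts say nothing direct on it.

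With KO, 4.90% of all genes were called in SSCs and 2.70% in c-KIT+ cells at an adjusted p under 0.01 (limma). In spermatocytes 1.67% were called at the wider threshold of 0.05. Few partner genes were among those called. In KO SSCs none of 8 maintenance partners and none of 18 replication genes was called by limma, with 2 and 9 at an unadjusted p under 0.05, and 16 of the 18 lay above 0 (median 0.12, against 0.01 over all genes). The 2 genes called outside the germ line list were Gadd45g, at 13.4 FPKM in WT and 6.02 FPKM in KO (-1.05, adjusted p = 0.00194), and Ahcy, which breaks down S-adenosylhomocysteine (-0.43, adjusted p = 0.00175). In KO c-KIT+ cells Ahcy (-0.46, adjusted p = 0.00164) and Mtr (-0.36, adjusted p = 0.00486) were called lower. In KO spermatocytes no gene of the 7 lists was called by limma, with 1 maintenance partner, 3 genes of oxidation and repair and 1 germ line gene at an unadjusted p under 0.05.

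In WT spermatocytes against WT SSCs, where 59.7% of all genes were called lower and 26.1% higher, all 8 maintenance partners were called lower, with a median of -3.12, and 16 of 18 replication genes, with a median of -3.26. Cdca7 went from 104 to 0.549 FPKM (-6.08), Hells from 90.9 to 6.82 FPKM (-3.57) and Mcm2 from 155 to 0.332 FPKM (-6.88). Of the oxidation and repair genes, 11 of 15 were lower and 3 higher, with Neil2, a glycosylase of base excision repair, at -4.09 and Ogt, the sugar transferase that binds TET proteins, at -4.04. Lower were also 9 of 12 chromatin guides (Kdm1b, -5.40), 9 of 11 genes of the methyl donor cycle (Mthfd1, -4.49) and 5 of 8 readers (Zbtb33, -3.75). The germ line genes ran the other way, with 8 of 12 higher and 3 lower and a median of 1.33, led by Sycp3 (2.59) and Mael (2.39) on the higher side and Taf7l (-6.10) and Dazl (-2.84) on the lower. Genes that reached 1 FPKM only in cultured cells were tested too, so these counts are a description.

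**Figure D4:**
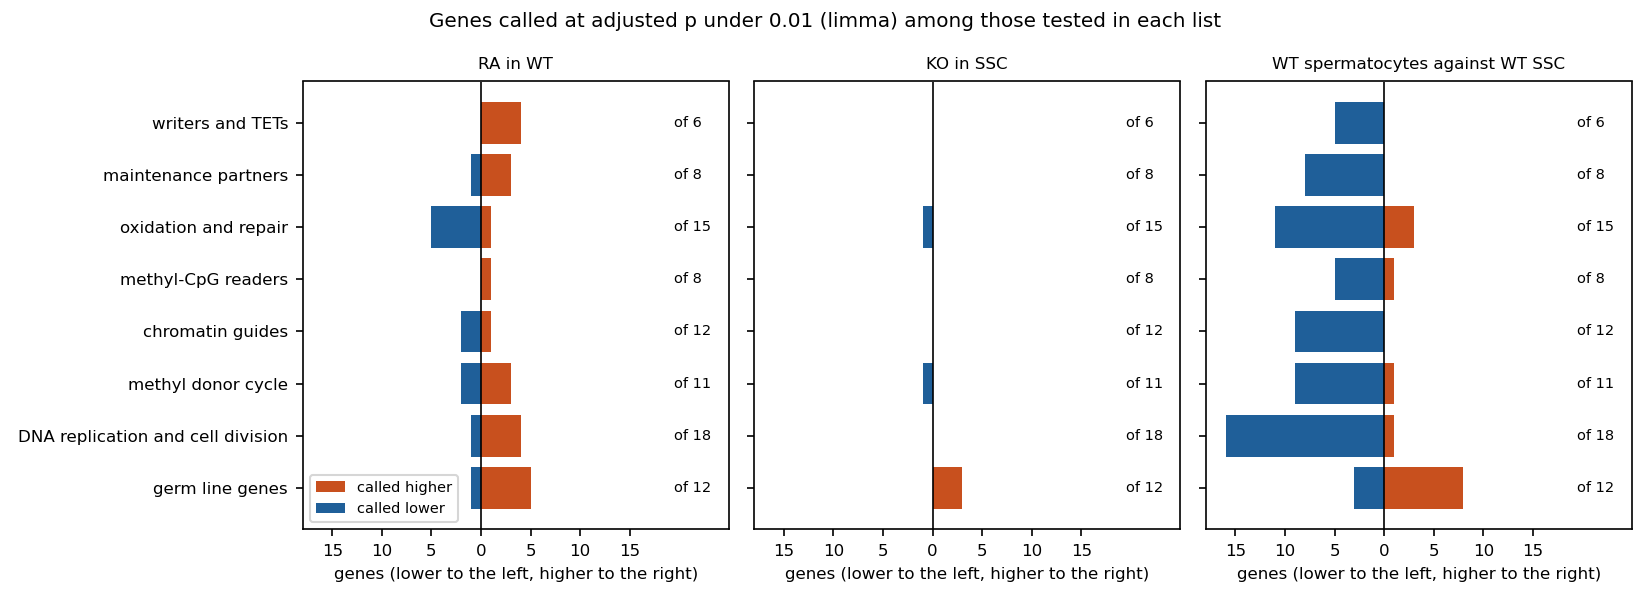
Number of genes called lower (bars to the left) and higher (bars to the right) by limma at an adjusted p under 0.01 in each list (y axis), with the number tested beside it. Of the 6 tested writers and TETs, 4 are higher with RA in WT, where 24.9% of all genes are higher. For KO in SSCs 0 are called, beside 4.90% of all genes. In WT spermatocytes against WT SSCs 5 are lower, where 59.7% of all genes are lower. Dnmt3l on the left, and Dnmt3a and Tet3 on the right, passed the filter only through groups where they were high.

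Over all 12 libraries the profile of most of the 8 genes is mainly the difference between cultures and spermatocytes, and many other genes share it. The genes most like Dnmt1 in log2(FPKM + 1), among 10047 genes searched, were Rab34, Ptk2 and Tor1a, those most like Dnmt3a were Dock1, Mdh2 and Aifm1, and those most like Uhrf1 were Mmd, Hsp90ab1 and Bcorl1 (Pearson r = 0.9992 to 0.9998, n = 12). For Dnmt3b they were Pdlim5, Zswim5 and Vps8 and for Tet3 Gm15127, C130039O16Rik and Polr3a (r = 0.9985 to 0.9990). Dnmt3l was least shared, with Ccdc36, 0610030E20Rik and LOC547349 at r = 0.95 to 0.94. For Tet1 they were Cebpb, Retsat and Nin and for Tet2 Akr1b10, Psme2 and 3110002H16Rik, with r = 0.97 to 0.98. Culture libraries share their culture and spermatocyte libraries their tissue source, so these values are a description.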

How the data were processed

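RNA-seq of 12 libraries was analysed, with groups taken from the sample labels. The FPKM were deposited by the authors, and the submitters' processing notes name TopHat2 2.0.6, Cufflinks 2.0.2 and the mm9 build. The annotation and the strand setting are not given in the sources used here. Fragment counts were not used, since 77.9% of 4199 low genes gave whole fragments within 0.02 by the confidence limits of 1 library. Of 23021 entries, 728 with a repeated symbol (259 symbols) were left out.

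Values were taken as log2(FPKM + 1). Genes that reached 1 FPKM in 2 or more libraries of a fit were tested with limma 3.58.1 in R 4.3.3, with moderated variances that follow a trend and p-values adjusted by Benjamini-Hochberg over every gene tested. The 8 culture libraries were fitted with 4 means (11981 genes), the 4 spermatocyte libraries with genotype and age (9350 genes) and all 12 libraries with 6 means (13247 genes), with 4, 1 and 6 residual degrees of freedom. The threshold was an adjusted p of 0.01, and 0.05 in spermatocytes. The culture fit and the fit of all 12 libraries were run on simulated data, with changes added only to well expressed genes. The spermatocyte fit, low genes such as Dnmt3l and changes as small as that of Dnmt1 with RA were not covered. The design and the alternatives (pseudocount, filter, scaling, threshold, variance trend, replicate block, compared groups only, each library left out) were written down with earlier results of these data known, and the genes and lists were chosen in the same way. Named were Zmym3, the 8 enzymes, of each list up to 4 called genes with the largest change or the 2 most abundant, and the 3 genes most like each enzyme. The differences of the KO effect between spermatocytes and cultures were added after the values were seen. Sequences come from RefSeq (GRCm38.p6) and tables were made with Python 3.11.15 and pandas 2.3.3.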

Additional observations from a re-analysis of the deposited data

Results flagged for a closer look

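For several genes every library of 1 group moved one way and every library of another moved the opposite way under the same contrast. Such opposite separation was seen for 3.39% of all genes between KO in SSCs and KO in c-KIT+ cells, for 1.66% between RA in WT and RA in KO, for 6.73% between KO in SSCs and KO in spermatocytes and for 5.96% between KO in c-KIT+ cells and KO in spermatocytes. Dnmt3a was 3.93% above WT in KO SSCs and differed from it by -7.55% in KO c-KIT+ cells, and by the same libraries RA went with a rise of 4.02% in WT and a mean change of -7.47% in KO. The interaction test covers both (-0.16, adjusted p = 0.655, limma) and did not pass.

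Dnmt3b in KO differed from its WT mean by -15.5% in SSCs and by -18.8% in c-KIT+ cells, and it was 28.9% above WT in spermatocytes. The KO effect in spermatocytes minus that in SSCs was 0.45 (SE 0.12, adjusted p = 0.107) and it exceeded the KO effect of c-KIT+ cells by 0.51 (SE 0.12, adjusted p = 0.0904, limma over 12 libraries), and neither passed.

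Dnmt3l in KO was 129% above WT in SSCs and 36.8% above it in c-KIT+ cells, while it differed from WT by -38.5% in spermatocytes. The differences of the KO effect were -0.61 (SE 0.13, adjusted p = 0.0476) and -0.40 (SE 0.13, adjusted p = 0.220, limma), and neither passed 0.01. Dnmt3l entered this fit only through the KO c-KIT+ libraries, and the contrasts were added after the values were seen, so these are a description. By the steps of the low values, the 4 spermatocyte libraries held about 6.01 to 14.5 fragments of this gene.

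Tet2 in KO differed from WT by -22.9% in c-KIT+ cells and was at 0.0307 against 0.0114 FPKM in spermatocytes, there on about 2 to 8.08 fragments a library, and the difference was not tested.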

How the results depend on the processing

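Over all alternatives, 738 values of single genes kept their side of the threshold, 719 of them with their sign and 19 uncalled values near 0 with a changed sign (0.07 at most in size), such as Dnmt3a (-0.01) and Uhrf1 (-0.02) for RA in WT with median-ratio scaling. A call was lost by 21 values and gained by 8, and 1 reversed. The reversal was Dnmt3l in WT spermatocytes against WT c-KIT+ cells, at 0.50 with quantile normalization, which also gave it a call against WT SSCs (0.76) and ended both KO calls (-0.03 and -0.10). RA in WT called 4 of the 6 tested genes, beside 40.7% of all genes. Of these, Dnmt1 and Dnmt3l lost their calls when any 1 of the compared libraries was left out. KO in SSCs called 0, and 1 (Dnmt3l) with a pseudocount of 0.1, with libraries at an equal total, with quantile normalization and with no variance trend. Dnmt3l was tested only through the KO c-KIT+ libraries, so its calls are a description. At a threshold of 0.05 KO in SSCs called 2 (Dnmt3b and Dnmt3l), where the calls over all 11981 genes went from 587 to 1530. KO in c-KIT+ cells called 0, and 1 (Dnmt3b) at a threshold of 0.05, where the calls over all genes went from 324 to 900. Dnmt1 lost its RA call in WT with median-ratio scaling (0.16, adjusted p = 0.0221) and with quantile normalization (0.25, adjusted p = 0.0170), and in KO under these, an equal total and a fit of the compared groups only. The cause of these changes was not tested.

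With a replicate block the members called were 4, 3, 0 and 0 for RA in WT, RA in KO, KO in SSCs and KO in c-KIT+ cells, as without it. The numbers share no stated batch, and same-numbered libraries were not taken as pairs. Their deviations correlated at 0.28 between KO SSCs and KO c-KIT+ cells and at 0.17 between WT SSCs and WT c-KIT+ cells. For the other pairs of groups the correlation was -0.07 to 0.09. A pairing of SSCs with c-KIT+ cells within each genotype was not fitted. Over all genes the block moved KO in c-KIT+ cells from 324 to 213 called.

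Counts over all genes moved with the settings: RA in WT from 4882 to between 3716 and 6727 (3129 to 3565 without 1 library), KO in SSCs from 587 to between 275 and 1530 (117 to 228), KO in c-KIT+ cells from 324 to between 129 and 900 (78 to 144) and KO in spermatocytes from 156 to between 0 and 248. Without the filter, Tet1 and Tet2 were lower in WT spermatocytes than in WT SSCs (-0.13 and -0.21, adjusted p = 0.000862 and 0.000169, limma), on few fragments. With the filter, 59.7% of all genes were called lower in that comparison. No RA or KO test of Tet1 or Tet2 passed without the filter (adjusted p = 0.0816 to 0.981, limma). Tet1 in KO spermatocytes against KO c-KIT+ cells did not pass either (-0.08, adjusted p = 0.0112).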
